A study of Lemna aequinoctialis with 6 samples.

Results

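Transcripts named for glutathione, thioredoxin, glutaredoxin and antioxidant enzymes were followed in the duckweed Lemna aequinoctialis, a tiny plant that floats on still water, treated with indole-3-propionic acid (IPA) or left as control. The members were chosen by words in the descriptions of the authors' deposited list of changed transcripts: glutathione, glutaredoxin, thioredoxin, catalase, superoxide dismutase, peroxiredoxin, ascorbate, respiratory burst oxidase and alternative oxidase. The rule found 76 transcripts of 38 genes among the 5093 listed transcripts of 2424 genes, out of 81787 transcripts of 28620 genes in the full table. A gene here is a Trinity gene, a cluster of transcripts that the Trinity assembler built from the reads, and a transcript is 1 of its isoforms. Because the list holds only what the authors had called on these 6 libraries, the differences between IPA and control below describe the members and are given with no test of their own.

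RNA was sequenced from powdered plants of 3 IPA samples and 3 control samples; IPA carries the indole ring of the plant hormone auxin. Dose, duration and strain are not given in the sources used here, and nothing says that replicates came from separate cultures. If they did not, their spread may be technical. Because whole plants were powdered, fewer cells of a type and less RNA per cell cannot be told apart. Levels are normalised read counts, scaled per library by the authors and not by transcript length, so they are compared between groups and not between genes. Replicates 1, 2 and 3 are given in that order, with n = 3 in each group, and each log2 value is the limma estimate of IPA over control on log2(normalised read count + 0.5), with its SE.

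Glutathione is a small thiol that keeps the inside of plant cells reduced. Glutathione S-transferases join it to reactive compounds, glutaredoxins use it to reduce disulfide bonds in proteins, and ascorbate and glutathione together remove hydrogen peroxide. Thioredoxins reduce protein disulfides along a parallel route, which in chloroplasts draws its electrons from photosynthesis. Respiratory burst oxidases work the other way: they are membrane NADPH oxidases that make superoxide outside the cell, as a signal in defence and growth.

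Of the 76 members 55 were lower and 21 higher in IPA than in control in the authors' deposited table, which is 72.4% lower against 49.2% over the whole list. By the direction of their listed transcripts 26 genes were lower and 12 higher, and no gene had members in both directions. The roles differed in direction. Lower in IPA were 22 of 23 glutathione S-transferase transcripts, 6 of 9 glutaredoxins, 13 of 15 thioredoxins and thioredoxin-like proteins, 10 of 10 other glutathione enzymes and 3 of 3 respiratory burst oxidases. Higher were 6 of 7 superoxide dismutase transcripts, 3 of 3 peroxiredoxins and 6 of 6 transcripts with ascorbate in the name. Isoforms of 1 gene are not independent. By gene, counted on listed transcripts only, 8 glutathione S-transferases were lower and 1 higher. Counted in the same way, 5 glutaredoxin genes were lower and 3 higher, and 6 thioredoxin genes lower and 2 higher. Sums over all isoforms of a gene are treated further below and do not always differ between the groups. The 6 higher superoxide dismutase transcripts were isoforms of 1 gene, and the listed transcript of the other gene of that role was lower. The 3 peroxiredoxins were isoforms of 1 gene, and the ascorbate-named transcripts came from 4 genes. No listed transcript was described as a catalase or an alternative oxidase.

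Median log2 changes were -1.22 for the glutathione S-transferases, -0.82 for the glutaredoxins, -0.96 for the thioredoxins and -1.04 for the other glutathione enzymes. The medians were -1.97 for the respiratory burst oxidases, 0.98 for the peroxiredoxin, 0.88 for the superoxide dismutases and 1.70 for the ascorbate-named transcripts. The superoxide dismutase median came from the isoforms of 1 gene. Over the sums of its 2 genes, 1 higher and 1 lower, the median was 0.066. Over all 78722 transcripts tested the median was 0.022, and over the authors' list it was 0.58. The groups did not overlap in 74 of the 76 members (97.4%), against 94.4% of the whole list and 32.9% of all transcripts tested (16.6% with IPA higher and 16.3% with IPA lower). Limma called 53 of the 76 at an FDR of 0.05 (69.7%), against 68.4% of the whole list and 8.37% of all transcripts tested. Of the 53 called, 18 were higher and 35 lower, and over all transcripts tested 4.49% were higher and 3.87% lower. Higher calls made up 53.7% of all calls with the authors' scaling, and 84.1% with library totals. Since the list was made from the same libraries, nothing is read from these shares. Leaving out IPA 1, 2 or 3 gave 27, 15 or 26 members called, with 4.46%, 1.60% or 3.13% of all transcripts called. Leaving out control 1, 2 or 3 gave 47, 16 or 67, with 9.0%, 1.95% or 13.1% of all. DESeq2 called 73 members and 13.2% of all.

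**Figure D1:**
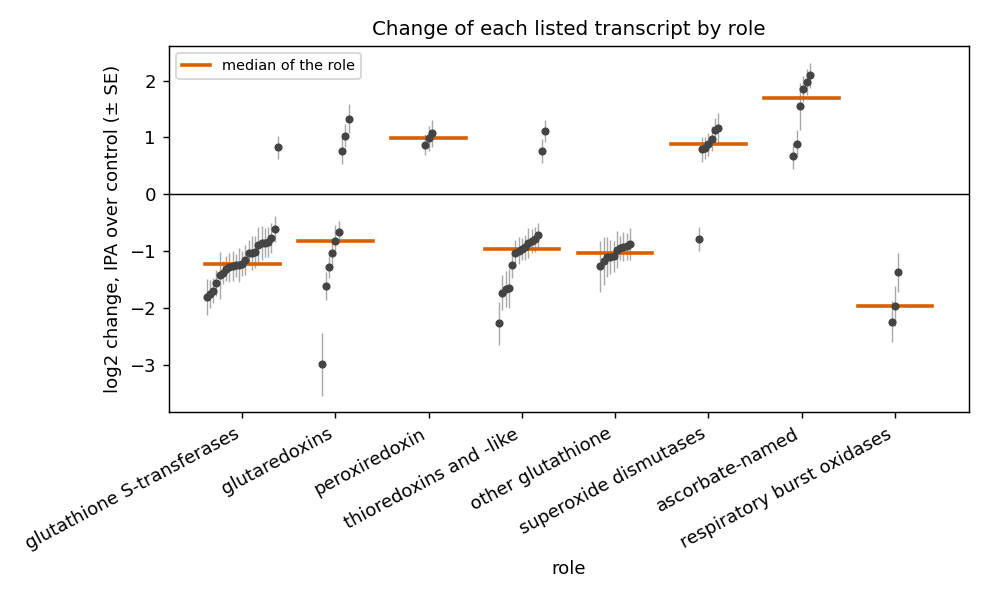
Log2 change of IPA over control with its SE (vertical axis, limma on log2(normalised read count + 0.5), 3 libraries per group) for each of the 76 members, grouped by role along the horizontal axis, with the median of each role as an orange bar. Glutathione S-transferases, other glutathione enzymes and respiratory burst oxidases sit below 0, except 1 glutathione S-transferase, while ascorbate-named transcripts and the peroxiredoxin sit above it.

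The libraries held 30149649 to 45233584 reads in IPA and 38556985 to 41370062 in control, and 71 of the 76 members had at least 10 reads in every library. The members together took 0.158 to 0.177% of reads in IPA and 0.0806 to 0.118% in control. The 64 listed transcripts of green tissue (chlorophyll a-b binding proteins, the RuBisCO small subunit and other photosystem proteins) were detected in every library and all higher in IPA, at 0.901 to 1.14% of reads in IPA and 0.184 to 0.297% in control. Transposon-named transcripts, 39 on the list, took 0.0108 to 0.0118% in IPA and 0.0167 to 0.0367% in control. The 20 most abundant transcripts of all took 7.62 to 9.96% of reads in IPA and 15.8 to 35.1% in control. With library totals in place of the authors' scaling, the median of all transcripts tested moved up by 0.23 log2. All 76 members kept their direction, which listing at an absolute log2 fold change of at least 1 had made likely. What part tissue makeup or the abundant transcripts have in the members' differences was not tested.

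The glutathione S-transferases made the largest group, with 23 transcripts of 9 genes. Tau-class enzymes, a plant class named U, made up most of its transcripts, though not most of its genes. Their best known work is the conjugation of herbicides and other foreign compounds. TRINITY_DN2787_c0_g1, described as U17, stood in its leading transcript at 30.1, 31.3 and 23.5 in IPA, against 45.1, 80.3 and 54.9 in control (log2 -1.04 ± 0.23). TRINITY_DN4440_c0_g1, also U17, had 6.23, 5.73 and 5.63 in IPA, against 17.9, 15.8 and 11.1 in control (log2 -1.25 ± 0.21). In both transcripts the groups did not overlap, and the highest library was control 2 for the first and control 1 for the second. Of the 7 listed isoforms of this second gene 1 had overlapping groups, at 2.61, 3.42 and 1.78 in IPA, against 8.39, 4.68 and 3.32 in control.

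The largest log2 differences in the group came from TRINITY_DN7875_c0_g1, whose 4 listed isoforms carry the names U15 and U17. Its most abundant isoform, U17, had 3.10, 2.13 and 2.35 in IPA, against 6.16, 9.80 and 9.70 in control (log2 -1.57 ± 0.23). Its isoform with the largest change, U15, had 0.316, 1.13 and 0.395 in IPA, against 4.77, 3.12 and 2.20 in control (log2 -1.81 ± 0.32). Summed over all 6 isoforms the gene was even within each group, at 9.34, 9.05 and 9.02 in IPA, against 30.1, 27.8 and 26.6 in control.

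A further tau-class gene, TRINITY_DN11945_c0_g4, had 3 listed isoforms described as U20, U21 and U25, and the U25 isoform stood at 0.890, 1.15 and 1.26 in IPA, against 4.59, 3.85 and 2.15 in control (log2 -1.29 ± 0.26). The phi-class enzymes, named F, are also plant-specific. TRINITY_DN9501_c1_g1, whose isoforms carry the names F8, GSTF1 and hmp2, had, in the leading isoform, 4.22, 4.40 and 4.52 in IPA, against 15.5, 8.56 and 6.18 in control (log2 -1.02 ± 0.28). IPA libraries were close together here and controls spread widely, with control 1 highest. Near-identical isoforms can share reads, so which of a gene's isoforms differed is uncertain, and the names are those of the best database match.

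The rest of the group was lower too, apart from 1 transcript. A transcript described only as Glutathione S-transferase (TRINITY_DN6550_c0_g1) had 3.71, 3.64 and 3.81 in IPA, against 24.4, 8.14 and 6.27 in control (log2 -1.43 ± 0.42). Control 1 stood far above the other controls. This isoform held 6.49 to 21.9% of the gene's reads. The gene summed to 55.2, 54.5 and 58.7 in IPA, against 112, 77.9 and 65.2 in control, a smaller difference (log2 -0.56 ± 0.20). Glutathione S-transferase 3, mitochondrial, had 0.862, 1.49 and 0.964 in IPA, against 4.62, 3.88 and 1.85 in control (log2 -1.24 ± 0.30). The theta-class T1 had, in its listed isoform, 0.833, 1.08 and 0.939 in IPA, against 3.29, 1.43 and 1.56 in control (log2 -0.77 ± 0.27). It held 3.80 to 9.45% of the gene's reads. The sums over the 15 isoforms of T1 overlapped, at 21.9, 22.2 and 20.2 in IPA, against 34.8, 21.6 and 22.9 in control (log2 -0.26 ± 0.20). The exception was DHAR3, named with the transferases but a dehydroascorbate reductase, which uses glutathione to bring oxidised ascorbate back. Its listed isoform had 1.75, 2.25 and 2.08 in IPA, against 0.754, 0.891 and 1.14 in control (log2 0.83 ± 0.20), with no overlap. That isoform held 1.51 to 4.93% of the gene's reads, and the gene as a whole stood at 44.0, 45.6 and 45.2 in IPA, against 50.1, 40.1 and 44.6 in control, which overlap.

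Among the other glutathione enzymes all 10 transcripts of 4 genes were lower in IPA. Limma called 4 of the 10 (40.0%), against 69.7% of all members and 8.37% of all transcripts tested. Of the 4 gene sums it called 1, against 10.3% of all genes tested. Leaving out IPA 1, IPA 2, IPA 3 or control 2 gave 0 calls among the 10, with 1.60 to 4.46% of all transcripts called. As for the other counts, nothing is read from these. Lactoylglutathione lyase, or glyoxalase I, clears the toxic by-product methylglyoxal with the help of glutathione. Its leading isoform had 10.1, 9.56 and 8.62 in IPA, against 28.1, 23.9 and 10.2 in control (log2 -0.98 ± 0.32). Control 3 stood close to the IPA libraries, and control 1 and 2 well above them. The 2 listed isoforms held 20.8 to 34.9% of the gene's reads. All 13 isoforms summed to 83.7, 78.9 and 75.8 in IPA, against 174, 128 and 85.7 in control (log2 -0.64 ± 0.24). The phospholipid hydroperoxide glutathione peroxidase, of a family that reduces lipid peroxides, had 9.31, 7.51 and 6.97 in IPA, against 24.1, 20.4 and 10.7 in control (log2 -1.10 ± 0.28). Putative inactive glutathione hydrolase 4, of the family that begins the breakdown of glutathione, had 8.30, 10.4 and 10.5 in IPA, against 47.9, 20.1 and 11.7 in control (log2 -1.18 ± 0.42). In both of these the lowest control was again control 3.

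Glutathione synthetase, the enzyme of the last step of glutathione synthesis, had, in its listed isoform, 0.919, 1.15 and 1.46 in IPA, against 4.22, 1.97 and 1.94 in control (log2 -0.88 ± 0.28). This isoform held 3.88 to 13.3% of the gene's reads, and the sum over its 13 isoforms was 23.7, 25.2 and 27.0 in IPA, against 31.7, 28.1 and 33.4 in control (log2 -0.29 ± 0.16). The sums did not overlap, but their log2 difference was smaller than that of the listed isoform.

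Glutaredoxins went both ways, with listed transcripts of 5 genes lower and of 3 genes higher. Putative glutaredoxin-C14 had the largest limma log2 estimate of all 76 members in absolute value, at 11.3, 8.50 and 1.88 in IPA, against 49.9, 68.3 and 36.2 in control (log2 -2.99 ± 0.55). IPA 3 was far below IPA 1 and 2, and every control was above every IPA library. In the authors' deposited table its log2 fold change was -2.83, beside -2.88 for Thioredoxin-like 3-1, which was the larger there. Glutaredoxin-C1 (TRINITY_DN3553_c0_g1) had 1.29, 2.54 and 1.19 in IPA, against 6.64, 5.44 and 5.72 in control (log2 -1.61 ± 0.25). A second C1 gene, TRINITY_DN20663_c0_g1, was lower as well, at 0.259, 0.143 and 0.321 in IPA, against 0.694, 0.573 and 0.732 in control. A transcript described as Glutaredoxin had 7.21, 6.88 and 5.86 in IPA, against 18.2, 13.5 and 11.3 in control (log2 -1.03 ± 0.21). It held 10.7 to 18.5% of its gene's reads. That gene summed to 54.5, 58.1 and 55.0 in IPA, against 98.1, 77.5 and 80.4 in control (log2 -0.60 ± 0.15). Glutaredoxin-C6 was the member in this role whose groups overlapped, at 1.09, 0.798 and 1.33 in IPA, against 1.33, 2.86 and 2.86 in control.

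The higher glutaredoxins were C3, C9 and S17. Glutaredoxin-C3 had 2.87, 4.48 and 5.86 in IPA, against 1.72, 1.34 and 1.14 in control (log2 1.33 ± 0.25), and the sum of its 2 isoforms was also apart, at 9.51, 14.3 and 16.1 in IPA, against 7.57, 5.69 and 4.80 in control. Glutaredoxin-C9 had 0.776, 0.778 and 0.791 in IPA, against 0.0604, 0.0636 and 0.274 in control. Control 1 and 2 held 2 reads each, below the floor of 3 reads, so no fold is given. Monothiol glutaredoxin-S17, which in Arabidopsis is needed for growth at raised temperature, had 1.52, 1.43 and 1.31 in IPA, against 0.392, 0.636 and 0.938 in control. This isoform held 0.778 to 1.58% of the gene's reads. Its 5 isoforms together overlapped between groups, at 102, 104 and 82.7 in IPA, against 50.4, 67.4 and 83.5 in control.

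**Figure D2:**
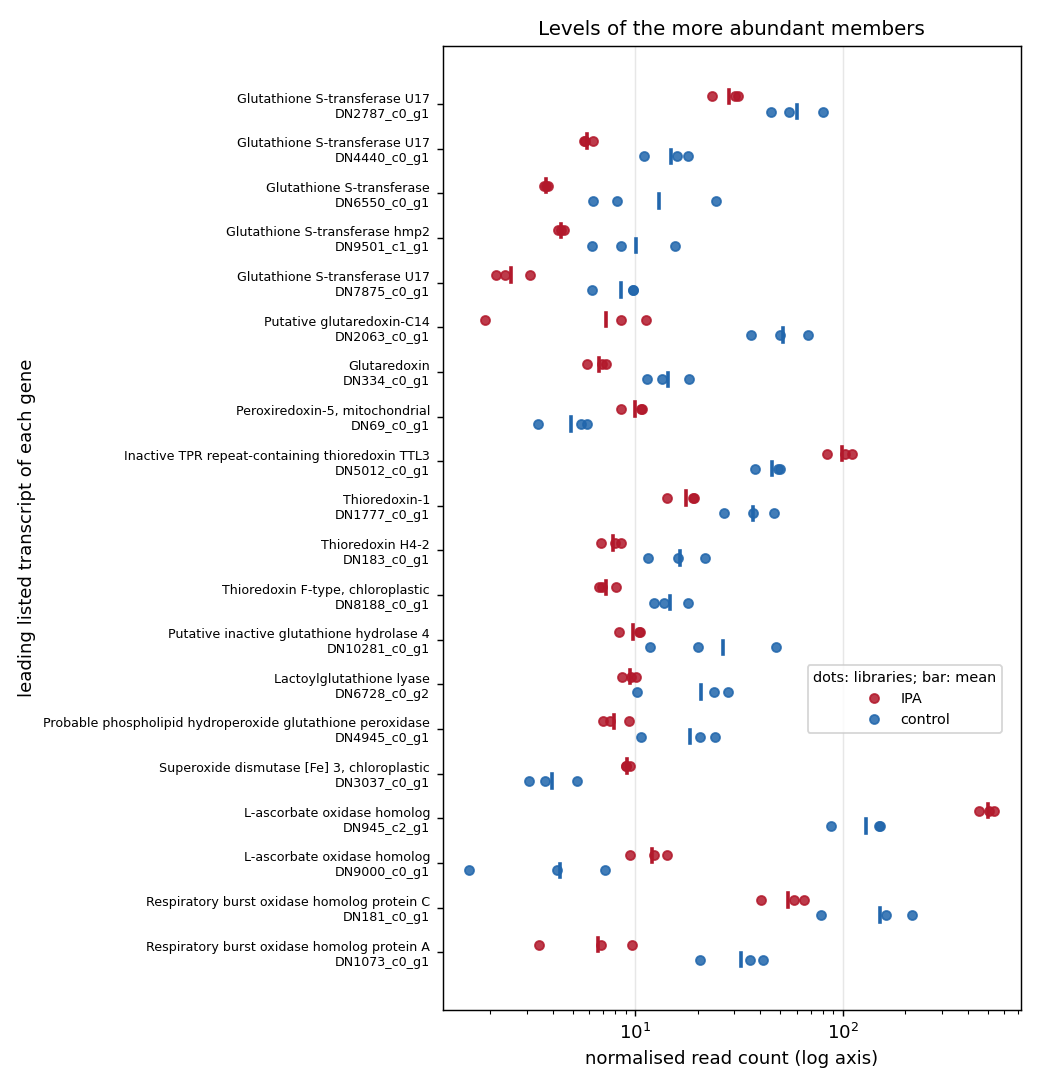
Normalised read counts (horizontal log axis) of the leading listed transcript of each named gene with a mean of at least 5, in 3 IPA libraries (red) and 3 control libraries (blue), with the group mean as a bar. The L-ascorbate oxidase homolog TRINITY_DN945_c2_g1 lies at 451 to 537 in IPA and 88.1 to 151 in control, and putative glutaredoxin-C14 at 1.88 to 11.3 in IPA and 36.2 to 68.3 in control.

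Listed transcripts were lower in 6 thioredoxin genes and higher in 2. Thioredoxin F-type, the chloroplast form that switches on Calvin cycle enzymes in the light, had 6.89, 6.65 and 8.11 in IPA, against 17.9, 13.8 and 12.3 in control (log2 -0.96 ± 0.19). Thioredoxin H4-2, of the mainly cytosolic h type, had 7.96, 6.82 and 8.58 in IPA, against 21.7, 16.1 and 11.5 in control (log2 -0.99 ± 0.23). Thioredoxin-1 had 19.2, 19.1 and 14.2 in IPA, against 46.5, 37.0 and 26.9 in control (log2 -1.03 ± 0.23). The groups were apart in all 3, and each log2 change lay close to -1.

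The largest change among thioredoxins was in Thioredoxin-like 3-1, chloroplastic, all 4 of whose isoforms were listed. Its leading isoform had 1.35, 1.27 and 1.14 in IPA, against 16.8, 6.20 and 4.73 in control (log2 -2.27 ± 0.38), and the gene summed to 3.68, 4.87 and 6.25 in IPA, against 40.3, 19.4 and 14.8 in control. Control 1 was the highest library, and the lowest control still exceeded the highest IPA library. Thioredoxin-like 1-1, also named chloroplastic, had 0.890, 0.839 and 1.48 in IPA, against 2.69, 1.88 and 2.06 in control. PLP3B is a phosducin-like protein with a thioredoxin domain that in Arabidopsis acts in microtubule assembly, and 5 of its 32 isoforms were listed. The one with the largest change had 0.747, 0.737 and 0.420 in IPA, against 2.72, 1.75 and 2.15 in control (log2 -1.25 ± 0.22).

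Neither of the higher members in this role is named as a classical thioredoxin. The inactive TPR repeat-containing thioredoxin TTL3, which in Arabidopsis works as a scaffold in brassinosteroid signalling, had 83.7, 103 and 111 in IPA, against 49.8, 48.8 and 37.6 in control (log2 1.12 ± 0.19). It is a gene of 1 isoform, and its groups stood well apart. Thioredoxin-like protein AAED1 had 1.35, 2.09 and 1.63 in IPA, against 0.815, 0.700 and 0.823 in control, but the sums over the gene's 6 isoforms overlapped, at 14.7, 16.7 and 13.5 in IPA, against 15.9, 8.62 and 11.8 in control.

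Enzymes that remove superoxide and peroxides directly were few on the list. Superoxide dismutase [Fe] 3, chloroplastic, protects the chloroplast nucleoid in Arabidopsis, and 6 of its 28 isoforms were listed, all higher in IPA. The leading one had 9.02, 9.38 and 8.97 in IPA, against 3.65, 3.09 and 5.22 in control (log2 1.13 ± 0.21), and the whole gene 80.3, 84.1 and 79.9 in IPA, against 42.6, 48.8 and 57.3 in control (log2 0.72 ± 0.16). The IPA libraries lay within a narrow band in both measures, above every control. Superoxide dismutase [Cu-Zn] 1 was lower in 1 listed isoform, at 0.115, 0.409 and 0.247 in IPA, against 0.845, 0.891 and 0.663 in control. This isoform held 0.552 to 3.51% of the gene's reads, and the 16 isoforms together overlapped, at 20.8, 15.9 and 14.9 in IPA, against 35.8, 25.6 and 18.9 in control.

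Peroxiredoxin-5, a thiol peroxidase that reduces hydrogen peroxide with electrons from thioredoxin or glutathione systems, had 3 listed isoforms of 11. The leading one had 8.56, 10.7 and 10.7 in IPA, against 3.41, 5.82 and 5.47 in control (log2 0.98 ± 0.22), and the gene as a whole 65.1, 71.2 and 71.2 in IPA, against 27.2, 45.3 and 46.6 in control (log2 0.83 ± 0.21). Control 1 was lowest in both, and no control reached an IPA library.

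The ascorbate-named members shared a word more than a function. The name L-ascorbate oxidase homolog marks multicopper oxidase-like proteins related to the cell wall enzyme that oxidises ascorbate. TRINITY_DN945_c2_g1 with this name had 507, 537 and 451 in IPA, against 149, 151 and 88.1 in control (log2 1.98 ± 0.23) in its leading isoform, and its other 2 isoforms were higher as well. It took 70.4 to 71.8% of the members' summed normalised reads in IPA, against 22.9 to 26.9% in control. The 76 members together summed to 1424 to 1642 in IPA and 762 to 1373 in control, so their sum was higher in IPA although most members were lower.

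A second gene of that name, TRINITY_DN9000_c0_g1, had 9.45, 12.3 and 14.3 in IPA, against 7.18, 4.20 and 1.58 in control (log2 1.55 ± 0.41). Controls differed among themselves more than in the first gene, control 3 being lowest. Putative L-ascorbate peroxidase 6 belongs by name to the enzymes that reduce hydrogen peroxide with ascorbate, and its listed isoform had 1.01, 1.78 and 1.24 in IPA, against 0.785, 0.636 and 0.503 in control. That was 0.543 to 1.64% of a cluster of 98 isoforms, which summed to 94.5, 108 and 114 in IPA, against 79.3, 86.2 and 92.8 in control (log2 0.29 ± 0.15). Nucleobase-ascorbate transporter 12, of a family whose plant members mainly carry nucleobases, had 1.21, 1.17 and 0.568 in IPA, against 0.272, 0.413 and 0.183 in control.

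Both respiratory burst oxidase genes were lower in IPA. Respiratory burst oxidase homolog protein C had 64.8, 58.1 and 40.3 in IPA, against 215, 161 and 78.3 in control (log2 -1.38 ± 0.35). Protein A had, in 1 of its isoforms, 9.68, 6.82 and 3.44 in IPA, against 41.0, 35.7 and 20.4 in control (log2 -2.25 ± 0.36), and, summed over both isoforms, 19.2, 13.1 and 8.43 in IPA, against 83.8, 67.1 and 36.0 in control. In both genes control 1 was the highest library, control 3 the lowest control and IPA 3 the lowest of all, and the groups did not overlap.

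**Figure D3:**
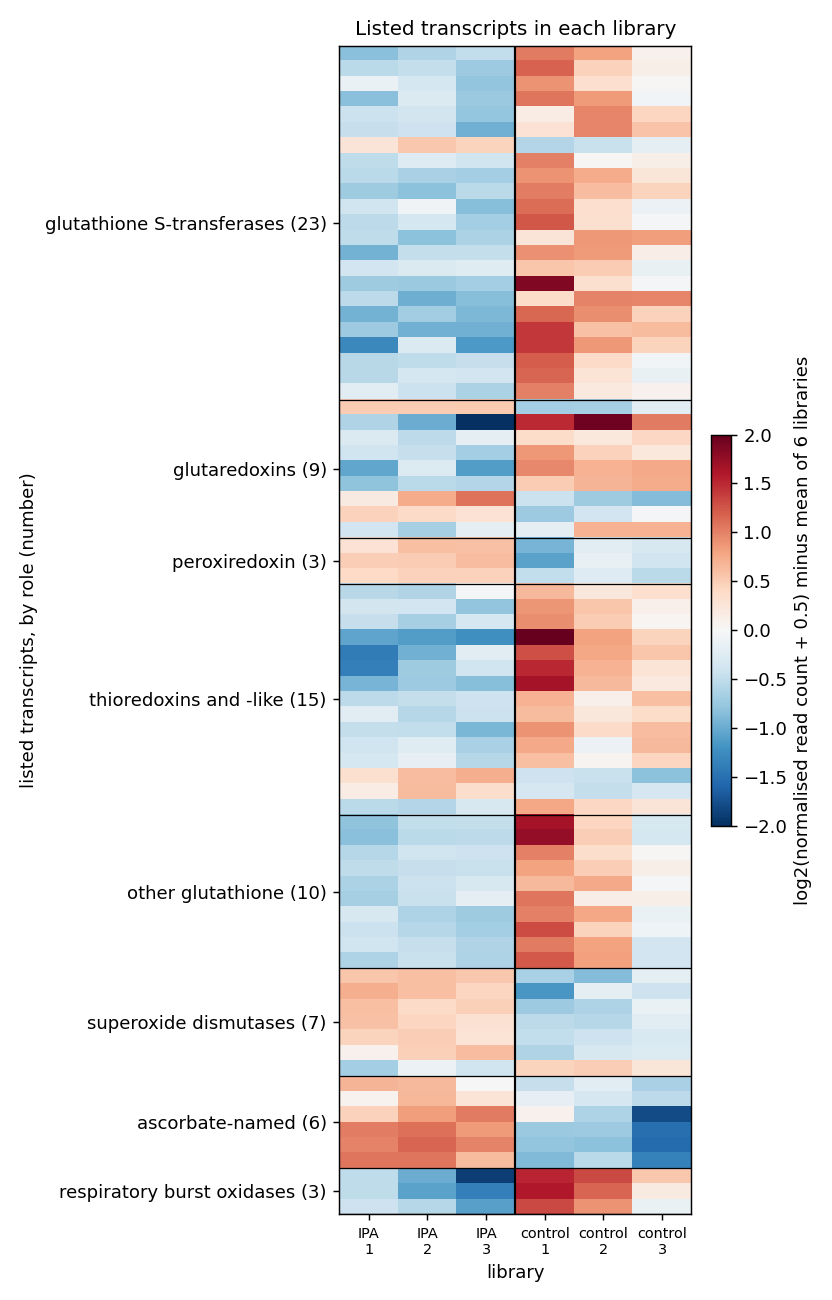
Each row is 1 of the 76 members, ordered by role, and each column a library; colour gives log2(normalised read count + 0.5) minus the mean of the 6 libraries, red above and blue below it, with colours ending at 2 and -2. Among the 55 rows lower in IPA, control 1 is the highest control in 45 and control 3 the lowest in 39.

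Members varied more among control libraries than among IPA libraries. Among the 55 lower members the median coefficient of variation over 3 libraries was 15.5% in IPA and 37.5% in control, and among the 21 higher members it was 11.9% in IPA and 26.6% in control. It was smaller in IPA in 44 of the 55 and in 17 of the 21. The whole list showed 21.5% in IPA and 36.6% in control for lower transcripts, and 23.4% in IPA and 29.6% in control for higher ones. Control 1 was the highest control in 45 of the 55 lower members (81.8%), against 75.0% of the lower transcripts of the whole list, and control 3 the lowest control in 39 (70.9%), against 76.5% of the whole list's. Without control 1 the median log2 change of the 55 was -0.85, against -1.11 with all libraries, and without control 3 it was -1.30. All 55 stayed lower in IPA without control 1, which was fixed in advance for the 53 whose groups did not overlap.

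How much of a gene the listed isoforms carried differed widely. The 38 genes had 334 isoforms in the full table, of which 258 were not on the list. In 14 genes every isoform was a member, and in 6 the members held less than 10% of the gene's reads in every library. These 6 were DHAR3, T1, S17, Thioredoxin-like 1-1, Superoxide dismutase [Cu-Zn] 1 and Putative L-ascorbate peroxidase 6. With the authors' scaling, isoforms outside the list mostly had the sign of the members. In the genes with lower members, 105 of the 117 tested isoforms outside the list had a log2 change below 0 (median -0.36). In the genes with higher members, 113 of 137 had a log2 change above 0 (median 0.26). Of these 137, 93 belonged to the Putative L-ascorbate peroxidase 6 cluster TRINITY_DN3635_c0_g1 and 22 to the Fe superoxide dismutase gene. Without the cluster 42 of 44 were above 0 (median 0.48). Isoforms of 1 gene share reads and are not independent, and over all transcripts tested 48.0% were below 0. Limma called 2 of the 117 lower and 4 of the 137 higher, against 3.87% lower and 4.49% higher over all transcripts tested. Transcripts outside the list had missed the authors' thresholds, so nothing is read from these calls. Library totals moved the median of all transcripts tested up by 0.23 log2, and the signs of these isoforms were not counted under that scaling.

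Summed over isoforms, all 38 genes had the sign of their members with the authors' scaling and all 6 libraries in limma. The sums contain the members, and in 14 genes every isoform was a member. The shared sign was therefore favoured in advance and is no separate support. DHAR3 had it only at 0.0056 ± 0.15. Glutathione S-transferase T1 (TRINITY_DN4352_c0_g1) and glutathione synthetase (TRINITY_DN3481_c0_g1) turned to 0.035 and 0.0096 with library totals, and DHAR3 (TRINITY_DN3245_c0_g1) turned to -0.025 in edgeR, -0.054 in DESeq2, -0.0056 without IPA 2 and -0.073 without control 2. In 31 genes the sums of the groups did not overlap, 8 with IPA higher and 23 with IPA lower, against 34.8% of all genes tested, 18.8% higher and 16.0% lower. The genes were chosen on the same contrast, so nothing is read from this count either.

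Limma called 24 of the 38 sums at an FDR of 0.05, against 10.3% of all 27203 genes tested and 58.7% of the genes on the list. Of these 7 were higher and 17 lower, against 5.65% higher and 4.68% lower over all genes, and with library totals 9 were higher and 9 lower, against 14.9% higher and 2.67% lower over all genes. As the same contrast chose the genes, nothing is read from these counts. Leaving out IPA 1, 2 or 3 gave 9, 5 or 10 sums called, with 4.96%, 1.67% or 3.51% of all genes called. Leaving out control 1, 2 or 3 gave 19, 4 or 29, with 10.2%, 1.79% or 15.4% of all.

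**Figure D4:**
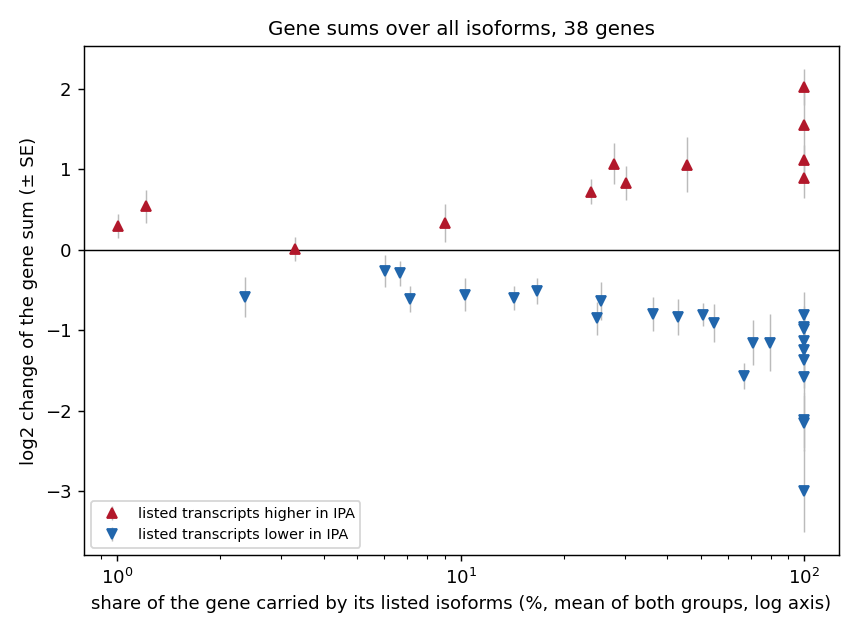
Log2 change of each gene summed over all isoforms with its SE (vertical axis) against the share of the gene's reads in its listed isoforms (horizontal log axis, mean of both groups), for 38 genes with higher (red) or lower (blue) members. Genes with every isoform listed reach 2.02 and -2.99, and DHAR3 lies at 0.0056; listing required a change of at least 1, so nothing is read from sums lying nearer 0 where few isoforms were listed.

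The list's thresholds were an FDR of 0.05 and an absolute log2 fold change of 1. Just inside on FDR, in the authors' deposited table, were Glutathione S-transferase U7 at 0.0495, a U17 isoform of the same gene at 0.0473 and T1 at 0.0358. The smallest fold changes in the authors' deposited table were those of Thioredoxin F-type at -1.02 and of 2 peroxiredoxin isoforms at 1.02 and 1.03. Descriptions exist only for listed transcripts, so values just outside can be given only for other isoforms of the same genes. The largest of these was an isoform of the U17 gene TRINITY_DN2787_c0_g1 at a log2 change of -0.98, followed by isoforms of Glutaredoxin-C3 at 0.88 and of Glutaredoxin-S17 at 0.81.

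Other genes of redox metabolism were counted among listed transcripts with the members left out, and they too had been selected on these libraries. Limma called 68.4% of the whole list, and over all transcripts tested 4.49% higher and 3.87% lower. Nothing is read from the numbers of calls given for these lists. Class III peroxidases, secreted enzymes that oxidise phenolics with hydrogen peroxide, were lower in 41 of 52 transcripts and higher in 11, and limma called 10 higher and 30 lower. The transcripts with the most reads were higher, and those ranked 4 to 10 by reads were all lower. Peroxidase 27 had 183, 248 and 411 in IPA, against 136, 121 and 98.3 in control, and the leading isoform of Peroxidase 42 had 62.0, 77.5 and 64.9 in IPA, against 21.0, 39.9 and 26.8 in control. Both were above every control in every IPA library. Peroxidase 5 (TRINITY_DN2612_c0_g1), the isoform ranked 5 and chosen after its values were seen, had 9.45, 8.04 and 6.35 in IPA, against 74.7, 77.0 and 41.7 in control (log2 -2.91 ± 0.25). Leaving out 1 library at a time gave 3 to 9 higher and 16 to 33 lower, with 0.844 to 6.34% of all transcripts called higher and 0.752 to 6.72% lower. The same shares over all transcripts stand beside the ranges given for the lists below.

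Sulphur assimilation and cysteine synthesis supply the cysteine of glutathione. Their wordlist had 10 of 17 transcripts higher and 7 lower, with limma calls of 7 and 5. The putative gamma-glutamylcyclotransferase had 169, 209 and 286 in IPA, against 569, 622 and 528 in control, and the leading Cysteine synthase had 92.5, 78.3 and 54.4 in IPA, against 227, 217 and 208 in control. In the other direction, 5'-adenylylsulfate reductase 3, which acts in sulphate reduction, had 23.7, 31.1 and 33.4 in IPA, against 8.57, 15.3 and 14.0 in control. Among the 10 higher were 3 transcripts of N-acetyl-gamma-glutamyl-phosphate reductase, an enzyme of arginine synthesis caught by its wording. Gamma-glutamyl peptidase 5, higher in its listed isoforms, and the gamma-glutamylcyclotransferase were also caught by the word gamma-glutamyl. Neither is named for sulphur assimilation or cysteine synthesis, so no direction of cysteine supply is read from the counts. Without 1 library the calls were 2 to 8 higher and 4 to 6 lower.

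In the list of metal binding and iron storage 7 transcripts were higher and 9 lower, with limma calls of 7 and 8. All 7 higher ones were isoforms of 1 gene of ferritin, the iron store (TRINITY_DN1317_c0_g1). Ferritin-3, chloroplastic, had, in its leading isoform, 82.2, 103 and 124 in IPA, against 33.3, 48.8 and 58.6 in control. The lower ones were 8 germin-like proteins and 1 transcript caught by the word germination. The calls were 0 to 7 and 5 to 8 with 1 library left out. Among NADPH-supplying enzymes 4 of 6 transcripts were higher and 2 lower, with calls of 3 and 1 (2 to 4 and 0 to 2 with 1 library left out). Their leading transcript, 6-phosphogluconate dehydrogenase 2 of the oxidative pentose phosphate pathway, had 49.9, 48.5 and 43.4 in IPA, against 132, 105 and 72.8 in control.

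Heat shock proteins and chaperones were higher in 37 of 61 transcripts and lower in 24, with calls of 29 and 18 (9 to 35 and 9 to 23 with 1 library left out). Heat shock cognate 70 kDa protein, a chaperone, had 859.6, 1027 and 664 in IPA, against 204, 408 and 419.7 in control. The wordlist for other repair and detoxification had 15 of 40 higher and 25 lower, with calls of 10 and 11. Its most abundant transcripts were chains of mitochondrial NADH-ubiquinone oxidoreductase, a respiratory complex caught by its wording. These varied widely among controls, chain 4L having 24.2, 47.7 and 28.6 in IPA, against 352, 689 and 15.7 in control. With 1 library left out the calls were 1 to 10 higher and 0 to 23 lower. With library totals they were 15 and 9, against 12.6% higher and 2.39% lower over all transcripts tested.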

How the data were processed

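Per the labels, total RNA was made into libraries with the TruSeq Stranded mRNA kit and read as paired ends. FastQC, Trimmomatic, BWA, featureCounts and edgeR are named, per the submitters' processing notes, with no versions, roles or settings in the sources used here. Library values were deposited as a scaled signal, and all were whole multiples of 1 read per library (tolerance 0.01 reads), which gave the reads back. Beside them the authors' list holds a log2 fold change, log2 CPM, likelihood-ratio score, p-value and FDR, per the file headers. No columns belonged to other samples.

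Groups were compared with limma 3.58.1 (trend, robust) in R 4.3.3 on log2(value + 0.5), IPA against control, Benjamini-Hochberg over 78722 transcripts kept by filterByExpr (minimum count 10, total 15). The fit was also run on simulated counts, drawn independently around common means with known changes planted. The differences between control libraries that many transcripts share here were not simulated, so no conclusion is drawn from that run. On recovered reads edgeR 4.0.16 (quasi-likelihood), a count test, called 6393 transcripts, and limma 6587. Alternatives were library totals, pseudocounts of 0.1 and 2, no filter, DESeq2 1.42.0, a replicate block and each library left out. Gene sums used the same fit on 27203 genes.

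Members and lists were chosen with earlier results of these data known. Named within each role were the most abundant gene transcripts and the largest changes at a mean of at least 1, and in the redox lists the most abundant transcripts; others were chosen after their values were seen. Precision is limited by counting and by 3 libraries per group. No sequence was used here.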

Additional observations from a re-analysis of the deposited data

How the results depend on the processing

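All 76 members kept their direction under each of the 13 alternatives, and of the 41 named transcripts none changed sign. The members were listed for their direction on these libraries, and in 74 of the 76 the groups did not overlap. A sign could therefore hardly turn, and nothing is read from the kept directions. The number called was within 1.5 times for pseudocounts of 0.1 and 2, no filter and edgeR's quasi-likelihood test (55 members, of which 18 higher and 37 lower). Library totals gave 11817 calls over all transcripts, 9937 higher and 1880 lower, so that 84.1% were higher against 53.7% with the authors' scaling. Of the members it called 21 higher and 27 lower, and of their gene sums 9 higher and 9 lower, against 14.9% higher and 2.67% lower over all genes. DESeq2 gave 10358 calls, 5424 of them lower, and 54 lower members. With the replicate block the calls were 4377, of which 2261 higher, with 12 higher members and 28 lower; member gene sums gave 12, of which 2 higher and 10 lower, against 3.06% higher and 2.70% lower over all genes. Deviations from the group mean had correlations of -0.087, 0.082 and -0.13 between libraries of the same number, for numbers 1, 2 and 3. Between libraries of different numbers they were -0.093 to 0.13. With 3 libraries centred within each group, these values cannot decide whether the numbers mark pairs, and the labels do not say. Leaving out 1 library gave 1278 to 10465 calls (676 to 5082 higher, 602 to 5383 lower), 15 to 67 members (3 to 18 higher, 10 to 49 lower) and 4 to 29 gene sums (1 to 8 higher, 2 to 21 lower). Fewer samples are tested in these fits, and the cause of the differences between libraries was not tested. At a total of 30149649 reads or more, glutaredoxin-C9 was the member at or under the floor of 3 reads, with 2 reads in 2 control libraries.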
